A study of Arabidopsis thaliana with 6 samples.

Results

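The genes described here were listed at exactly 0 in all 3 wild-type Col-0 libraries and above 0 in all 3 asf1a1b libraries of Arabidopsis thaliana fresh seeds. They number 323 of the 32833 genes of the deposited table, which is 0.984% of it, and the peroxidase gene PRX69 (AT5G64100), which meets the same rule, is left out of that number. The study compared total RNA of fresh seeds from 2 genotypes with 3 RNA-seq libraries each. The asf1a1b seeds come from a double mutant of the histone chaperone genes ASF1A and ASF1B, for which the labels name no allele and no background line. The Col-0 seeds are the wild type (Columbia-0). Plants of both genotypes grew on soil in long days and their seeds were collected fresh, while the labels also speak of stratification for 4 days, so that it is not settled whether the sequenced seeds were stratified. Since separate plants or harvests are not stated for the libraries of a genotype, every p-value measures the spread between these libraries, which may be technical. The choice used the contrast between the genotypes, so that the difference itself is a description and carries no test.

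ASF1 proteins bind histones H3 and H4 and hand them to the complexes that build nucleosomes, both behind the replication fork and outside replication. In plants, nucleosome density, Polycomb marks and DNA methylation keep genes of other organs and stages quiet in a given tissue. A mature seed holds stored messengers for reserves and desiccation tolerance, and many genes of leaves, flowers, meiosis and pathogen defence are little transcribed in it.

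The labels were checked first on the targeted genes. ASF1A (AT1G66740, chromosome 1, 24892340 to 24893876, plus strand) stood at 2.52, 2.06 and 2.39 rescaled TPM in the asf1a1b libraries 1, 2 and 3, against 17.8, 16.9 and 15.4 in the Col-0 libraries. ASF1B (AT5G38110, chromosome 5, 15208358 to 15210335, plus strand) had 0.334, 0.157 and 0.276 in asf1a1b and 4.36, 2.26 and 2.28 in Col-0. Both genes were lower in every mutant library, with log2 fold changes of -2.41 ± 0.12 and -1.62 ± 0.22 (SE, limma adjusted p = 0.00022 and 0.00276, n = 3 per genotype). Rescaled TPM is the deposited unit, a length-corrected abundance that had been adjusted between libraries. All 6 seed storage and desiccation markers were expressed in every library, and their summed level ran from 67650 to 93256 in asf1a1b and from 65370 to 104861 in Col-0. Of the 6, the 2S albumin gene SESA1 was higher in asf1a1b, with 5471, 3624 and 5061 rescaled TPM against 1558, 652 and 687 in Col-0 (log2 fold change 2.39 ± 0.36 SE, limma adjusted p = 0.00422), and the other 5 did not pass the test. The reads recovered from the deposited values numbered 42771595 to 56018041 per asf1a1b library and 44307070 to 47993704 per Col-0 library. In these bulk samples, fewer cells of a type and less RNA per cell cannot be told apart.

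The pattern was lopsided between the genotypes. The reverse set, listed at 0 in all asf1a1b libraries and above 0 in all Col-0 libraries, held 33 genes, which is 0.101% of the table. Of the 9915 genes at 0 in all Col-0 libraries, 3.26% were read in every mutant library, while 0.432% of the 7641 genes at 0 in all asf1a1b libraries were read in every Col-0 library. Both numbers include 7059 genes at 0 in all 6 libraries. With every library thinned to the smallest total, the expected numbers were 314.8 genes and 36.8 genes for the reverse set. More genes in all were above 0 in the mutant, with 21834, 23997 and 22726 genes in asf1a1b replicates 1, 2 and 3 and 21133, 21086 and 21011 genes in the Col-0 libraries. The count depends on the number of libraries that must be at 0 or above it. It was 932 without asf1a1b replicate 1, 394 without asf1a1b replicate 2, 529 without asf1a1b replicate 3, and 529, 498 and 460 without Col-0 replicates 1, 2 and 3. The reverse set counted 65, 87 and 54 genes without asf1a1b replicates 1, 2 and 3 and 60, 62 and 63 without Col-0 replicates 1, 2 and 3, fewer than its counterpart in each case.

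**Figure D1:**
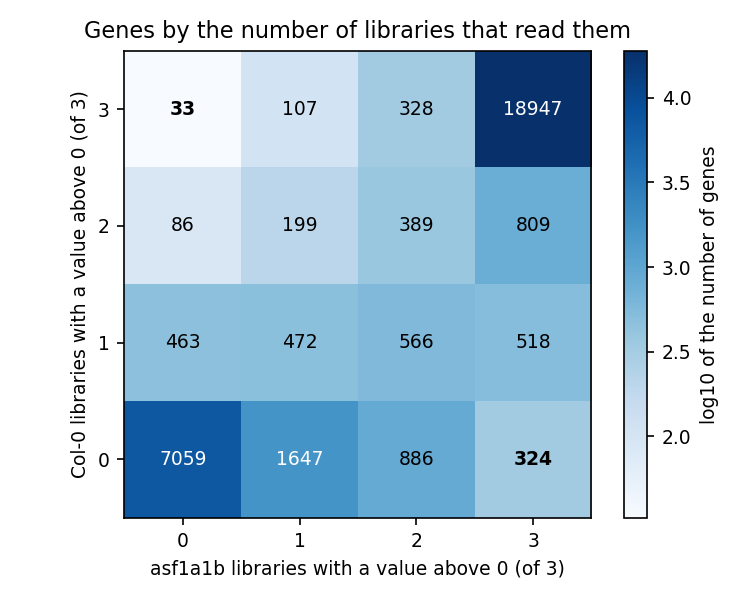
Number of genes by how many of the 3 asf1a1b libraries (horizontal) and of the 3 Col-0 libraries (vertical) gave a value above 0, with colour on a log10 scale. The corner of genes read in all asf1a1b libraries and in no Col-0 library holds 324 genes with PRX69 included, and the opposite corner holds 33.

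Most of the genes were read at very low depth. The summed reads over the 3 asf1a1b libraries ranged from 3 to 331 per gene with a median of 9, and 162 genes had at most 9. In 196 of the 323 genes at least 1 library gave a single read, and in 17 every library did. At least 3 reads in each asf1a1b library were found for 64 genes, at least 5 for 24 and at least 10 for 5. The reverse set had a median of 5 summed reads in Col-0 and a maximum of 30, with 4 genes at 3 or more reads in each library and 0 genes at 5 or more. The mean level over the asf1a1b libraries had a median of 0.0877 rescaled TPM, 137 genes reached 0.1 and 2 genes reached 1. Of the 323 genes, 1 (AGL96) reached the mean of 1 over the 6 libraries that the fit across genes required, and no test of the members is used.

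**Figure D2:**
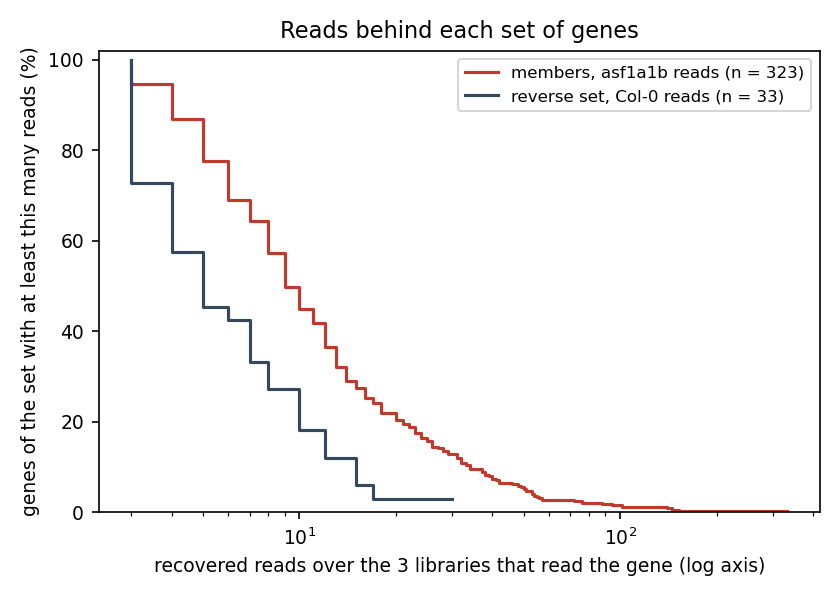
Share of genes (vertical, %) with at least a given number of recovered reads (horizontal, log axis), for the 323 genes read in asf1a1b and for the reverse set of 33 genes read in Col-0. The median is 9 reads for the 323 genes and 5 reads for the reverse set, and the highest values are 331 and 30 reads.

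The 3 mutant libraries did not contribute equally. The 323 genes together had 835, 2963 and 1615 reads in asf1a1b replicates 1, 2 and 3, which is 19.5, 52.9 and 30.7 CPM of the recovered reads. Replicate 2 held the highest value for 180 genes, replicate 3 for 79 and replicate 1 for 64. Of the 9915 genes at 0 in Col-0, replicate 2 also read the largest share, 21.9%, against 14.0% in replicate 3 and 8.36% in replicate 1. Depth ran in the same order, with 56018041, 52690959 and 42771595 recovered reads in replicates 2, 3 and 1. The part of depth in these shares was not tested. The highest value was more than 10 times the lowest for 23 genes, of which 20 peaked in replicate 2 and 3 in replicate 3. AT3G53980, a lipid-transfer protein gene, showed the widest spread with 0.042, 3.88 and 0.451 rescaled TPM in replicates 1, 2 and 3 of asf1a1b. GGT1, a gamma-glutamyl transpeptidase of glutathione breakdown, had 0.041, 1.09 and 0.393. At the other end, 78 genes stayed within a factor of 2 between libraries, with their peaks in replicates 1, 2 and 3 for 28, 29 and 21 genes. Among them are the 17 genes with 1 read in every library. For these, the scaling of the libraries alone fixes both the narrow range and the peak in replicate 1.

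Markers of some other tissues were also lowest in asf1a1b replicate 1 and higher in replicates 2 and 3. The 12 leaf markers summed to 65.4, 129 and 126 rescaled TPM in replicates 1, 2 and 3 of asf1a1b, against 21.5, 31.5 and 27.1 in Col-0. RBCS1A was the largest part of each sum, at 49.3, 72.5 and 91.3 in asf1a1b. RBCS2B was at 0 in asf1a1b replicate 1 and in all Col-0 libraries, while RCA and PSAD1 were lowest in replicate 3 among the asf1a1b libraries. The 11 defence and senescence markers summed to 3.39, 25.4 and 15.3 in asf1a1b, against 0.721, 1.46 and 1.19 in Col-0, and PDF1.2A was at 0 in all 6 libraries. Of the floral regulators, PI had 0.052, 1.15 and 0.235 in asf1a1b and 0.023, 0.047 and 0 in Col-0, and AP3 had 0.028, 0.588 and 0.069 in asf1a1b and 0, 0.075 and 0 in Col-0. SAG13, a senescence marker, had 0.025, 12.2 and 4.61 in asf1a1b against 0, 0 and 0.041 in Col-0. It did not pass the test (limma adjusted p = 0.0861), but passed it with the replicate number as a block (adjusted p = 0.0428). The 17 root markers summed to between 4.77 and 7.22 in asf1a1b and between 5.63 and 9.93 in Col-0. SCR was the largest part of each sum, and PYK10 added 3.25 in Col-0 replicate 2. Of the low root markers, CASP2 had 0.271, 0.598 and 0.336 in asf1a1b against 0.059, 0.092 and 0.113 in Col-0. RHD6 went the other way, with 0.213, 0.117 and 0.117 against 0.477, 1.07 and 1.03. The 14 pollen markers summed to 14.9, 15.8 and 6.09 in asf1a1b against 13.1, 6.76 and 4.74 in Col-0, with 3 of 5 tested genes higher in asf1a1b. The 8 endosperm markers summed to 9450, 9230 and 11133 in asf1a1b against 6904, 10324 and 9834 in Col-0, nearly all from EPR1, with no tested gene past the threshold. The part of leaf, flower or senescing tissue in the 323 genes was not tested. Of the same marker lists, 4 of 8 tested leaf genes passed the limma threshold, all of them higher in asf1a1b, and 1 of 2 tested defence genes did so, CYP71A13 of camalexin synthesis, where 30.6% of all 14663 genes tested passed, 16.1% as higher and 14.5% as lower. With the block, GAPB joined the leaf genes that passed (adjusted p = 0.0332).

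Genes chosen on 4 libraries were looked up in the 2 libraries left out, which the choice had not used. Without replicate 1 of both genotypes, 1245 genes met the rule, and 42.5% of them were above 0 in asf1a1b replicate 1 against 25.1% in Col-0 replicate 1. Without replicate 2, 589 genes met it, and 84.6% were above 0 in asf1a1b replicate 2 against 33.1% in Col-0 replicate 2. Without replicate 3, 707 genes met it, with 65.1% in asf1a1b replicate 3 against 25.2% in Col-0 replicate 3. The left-out mutant library read more of the genes in all 3 cases, and the left-out wild-type library still read 25.1% to 33.1% of them.

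Genes chosen with the genotypes exchanged were looked up in the same way. Without replicate 1, 42.9% of 105 genes were above 0 in asf1a1b replicate 1 against 61.9% in Col-0 replicate 1. Without replicate 2, 57.8% of 147 genes were above 0 in asf1a1b replicate 2 against 59.2% in Col-0 replicate 2. Without replicate 3, 39.4% of 104 genes were above 0 in asf1a1b replicate 3 against 51.9% in Col-0 replicate 3. The left-out Col-0 library was ahead in all 3 cases, by little for replicate 2.

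**Figure D3:**
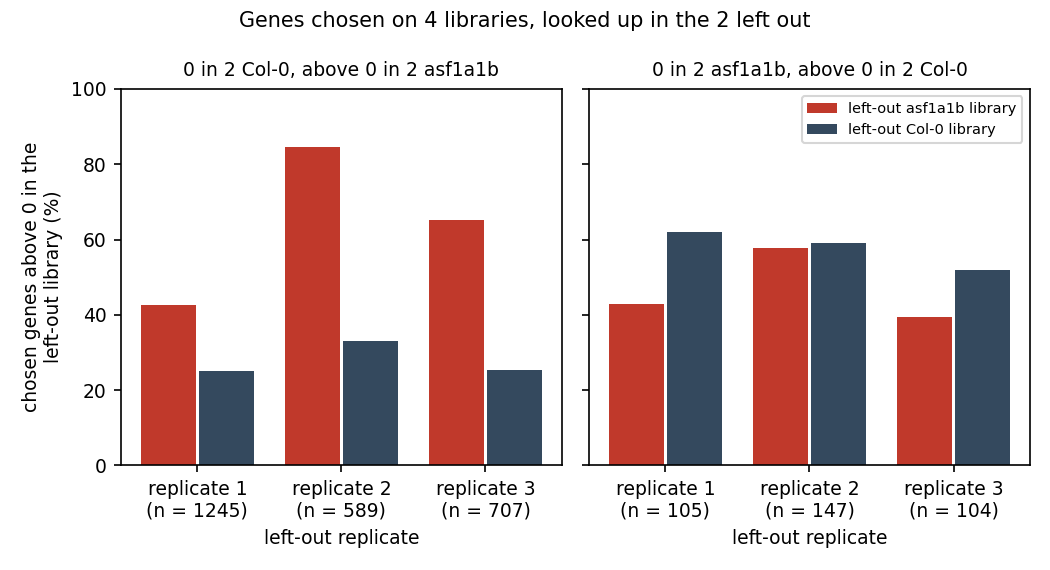
Share of genes (vertical, %) above 0 in the left-out asf1a1b library and in the left-out Col-0 library, for genes chosen without that replicate, at left by the rule and at right with the genotypes exchanged. At left the asf1a1b bars reach 42.5%, 84.6% and 65.1% against 25.1%, 33.1% and 25.2% for Col-0, and at right the bars of replicate 2 are nearly level at 57.8% and 59.2%.

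The highest level belonged to a MADS-box gene, of the family of transcription factors that set organ identity and act in the female gametophyte and endosperm. AGL96 (AT5G06500, chromosome 5, 1982444 to 1983205, plus strand, 1 exon) had 2.61, 3.53 and 5.82 rescaled TPM in replicates 1, 2 and 3 of asf1a1b from 59, 113 and 159 reads, against 0 reads in each Col-0 library. Its mean of 3.99 ± 1.65 (SD, n = 3) was at least 103-fold higher than the level of 3 reads over the Col-0 group. Every mutant library was far above that floor. AGL96 was the only gene of the 323 in the authors' deposited table, which gives it a log2 fold change of 9.12 with the direction up. That direction is held by 6.23% of the 15257 genes there. The authors' values come from the same 6 libraries that the rule used, so the direction was fixed by the choice and adds no support. None of the 33 genes of the reverse set was in the authors' deposited table. The genes next to AGL96 were almost unread, with 0, 0.039 and 0.023 in asf1a1b and 0 in all Col-0 libraries for AT5G06490 and 0, 0.101 and 0.013 in asf1a1b and 0 in all Col-0 libraries for NF-YA10. The window before the annotated start of AGL96 is shown because this gene carries the most reads, from chr5:1982194-1982443 of RefSeq's TAIR10.1 assembly, plus strand, with the 1 motif match in capitals, a TATAAA at the far end of the window.

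AGL96: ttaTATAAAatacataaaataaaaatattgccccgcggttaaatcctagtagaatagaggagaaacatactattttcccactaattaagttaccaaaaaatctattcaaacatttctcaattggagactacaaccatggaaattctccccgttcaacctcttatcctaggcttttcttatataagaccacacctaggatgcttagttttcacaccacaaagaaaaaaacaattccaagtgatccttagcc

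The longest run of neighbouring members was also led by MADS-box genes. AT1G59920, AT1G59930 and ARR3 (AT1G59940) follow each other on the minus strand of chromosome 1 from 22059424 to 22067233, within 7810 bases. AT1G59930, a MADS-box gene, had 0.285, 0.522 and 0.376 rescaled TPM in replicates 1, 2 and 3 of asf1a1b (5, 13 and 8 reads), and AT1G59920, the copy beside it, had 0.081, 0.454 and 0.333 (1, 8 and 5 reads). These 2 genes are 98.8% identical over 419 bases, so reads can be split between them and the value of each is uncertain. ARR3, a type-A response regulator of cytokinin signalling, had 0.155, 0.290 and 0.553 (6, 16 and 26 reads). All 3 genes were at 0 in the 3 Col-0 libraries. The gene on the far side, AT1G59910 for a formin, had 9.06, 9.63 and 8.14 in asf1a1b against 10.3, 12.0 and 12.1 in Col-0 and did not pass the test (log2 fold change -0.33 ± 0.12 SE, limma adjusted p = 0.0778). AT1G59950, beyond ARR3, was read in asf1a1b replicate 2 alone, at 0.049.

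The windows of 250 bases before the starts of the 2 MADS-box copies are shown because the genes were read together, from chr1:22061517-22061766 and chr1:22059843-22060092 of TAIR10.1, minus strand. Capitals mark matches to TATAAA on either strand and to the telo-box AAACCCTA, a short element known from Polycomb recruitment in Arabidopsis.

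AT1G59930: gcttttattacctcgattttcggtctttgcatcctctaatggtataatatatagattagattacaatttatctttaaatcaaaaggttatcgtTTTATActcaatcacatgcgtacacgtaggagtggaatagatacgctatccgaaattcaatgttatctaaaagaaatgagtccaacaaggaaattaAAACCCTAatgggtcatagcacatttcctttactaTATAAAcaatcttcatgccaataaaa
AT1G59920: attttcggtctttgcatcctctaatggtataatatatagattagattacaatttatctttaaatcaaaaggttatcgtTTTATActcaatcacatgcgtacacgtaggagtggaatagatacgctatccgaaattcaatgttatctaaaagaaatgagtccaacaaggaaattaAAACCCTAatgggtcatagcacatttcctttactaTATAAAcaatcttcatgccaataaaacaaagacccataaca

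Shifted by 15 bases, the 2 windows matched at all 235 of the 235 bases compared. The 3 other MADS-box genes had 11 summed reads or fewer each, among them STK, which sets ovule and seed coat identity, with 3, 3 and 1 reads in asf1a1b. Together the 6 MADS-box genes had 72, 145 and 176 reads in asf1a1b replicates 1, 2 and 3. They were 10.2% of the 59 MADS-box genes at 0 in all Col-0 libraries, where 4.64% of all such protein-coding genes were members. The group was formed after its values were seen, and the share was not tested.

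The 20 genes of highest mean with at least 5 reads in each mutant library were named by rule. VPS24.2, for a subunit of the membrane-sorting ESCRT-III complex, was among the most even with 0.283, 0.333 and 0.273 rescaled TPM in replicates 1, 2 and 3 of asf1a1b, at least 7.21-fold above the Col-0 floor. AT1G12890, for an AP2/ERF-type DNA-binding protein, had 0.234, 0.263 and 0.270, at least 6.29-fold above it, and overlaps AT1G04983. The rule put Col-0 at 0 reads for both genes. AT5G01870, for a lipid-transfer protein, had 0.487, 0.721 and 0.885, at least 16.5-fold above the floor. AT3G49830, a nucleoside triphosphate hydrolase gene, had 0.212, 0.403 and 0.332, and LGT9, a sugar transferase gene, had 0.201, 0.257 and 0.135. The tropinone reductase gene TRI was highest in replicate 1, with 0.309, 0.131 and 0.128 in asf1a1b. The gene before it on the same strand, AT2G29320, is also a member, at 0.023, 0.145 and 0.113. Of the 24 genes with at least 5 reads in each mutant library, 13 stayed within a factor of 2. The others of the 20 were AT1G32780, AT2G37585, AT2G45750, AT4G36470 and AT5G07570, with means from 0.102 to 0.217.

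**Figure D4:**
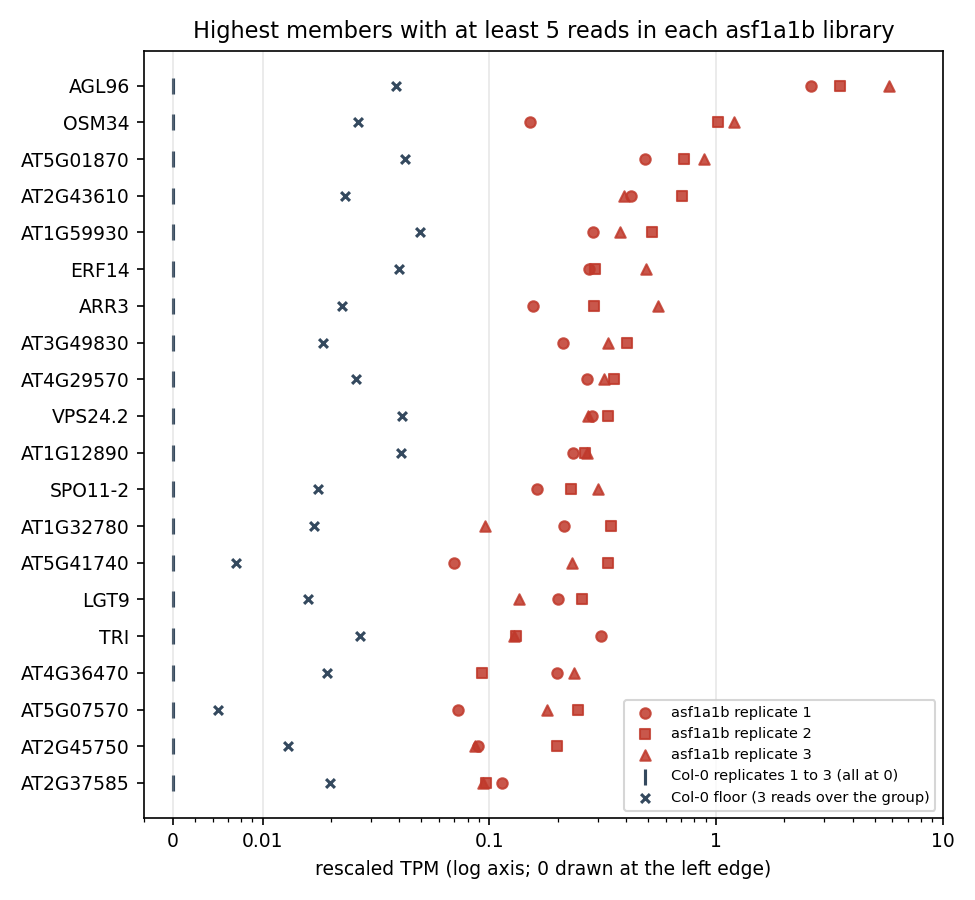
Rescaled TPM (horizontal, log axis) of the 20 named genes in the 3 asf1a1b libraries, with the 3 Col-0 libraries at 0 at the left edge and crosses at the Col-0 level of 3 reads over the group. AGL96 lies highest at 2.61 to 5.82 in asf1a1b. The crosses are given for scale, since the choice of at least 5 reads in each asf1a1b library and 0 in Col-0 fixes on which side of them the points lie.

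Genes of pathogen defence and jasmonate had 40, 306 and 148 reads over 10 genes in asf1a1b replicates 1, 2 and 3. This group and those that follow were put together after the values had been seen. OSM34, an osmotin of the PR5 family, had 0.151, 1.02 and 1.19 rescaled TPM in asf1a1b, at least 30.1-fold above the Col-0 floor. PR1, the standard marker of salicylic acid responses, had 0.112, 1.42 and 0.587 (3, 54 and 19 reads). PR5, of the same response, had 0.031, 0.217 and 0.051 (1, 10 and 2 reads). All 3 were lowest in replicate 1. The chitinase gene AT2G43610 was more even with 0.422, 0.707 and 0.392, and the TIR-NBS-LRR resistance gene AT5G41740 had 0.070, 0.334 and 0.232. JAZ5, a repressor of jasmonate signalling, peaked in replicate 2 with 0.030, 0.436 and 0.1, and AOC1, an enzyme of jasmonate synthesis, had 2, 3 and 1 reads. In 9 of the 10 genes replicate 2 held the highest value, as it did in 180 of all 323 members (55.7%). The defence and senescence markers, which share PR1 and PR5 with this group, also summed highest in replicate 2. PR2, a further gene of the salicylic acid response, was not a member, at 0, 0.242 and 0.113 in asf1a1b and 0 in all Col-0 libraries.

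Stress-related transcription factors had 20, 91 and 39 reads over 6 genes. ERF14, an ethylene response factor that activates defence genes, had 0.275, 0.291 and 0.492 rescaled TPM in replicates 1, 2 and 3 of asf1a1b (6, 9 and 13 reads). CBF2, a regulator of cold acclimation, had 0.034, 0.241 and 0.057. The zinc finger genes ZAT7 and ZAT11, linked to stress responses, had 26 and 17 summed reads by library counts of 4, 16 and 6 and of 2, 11 and 4. ERF14 was highest in replicate 3, whereas CBF2, ZAT7 and ZAT11 were highest in replicate 2.

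Regulators of development were read at lower levels, with 23, 95 and 68 reads over 12 transcription factor genes. DOF4.7, known from floral organ abscission, had 0.069, 0.415 and 0.286 rescaled TPM in asf1a1b, and overlaps AT4G38005. HB53, a homeobox gene, had 0.036, 0.303 and 0.415, and ATHB13, a homeodomain-leucine zipper gene, had 0.043, 0.226 and 0.247. ATH1, a homeobox regulator of flowering, HDG8, UPB1, LBD42 and NAC036 had 8 to 23 summed reads. UFO, an F-box regulator of flower meristems outside this group, had 1, 7 and 5 reads. For these genes replicate 1 mostly gave 1 to 3 reads, while LBD42 was even with 5, 4 and 5 reads.

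Hormone and peptide genes were few. With ARR3, the cytokinin and auxin group counted 5 genes and 13, 39 and 35 reads, and the other 4 were RR21, a type-B response regulator, LOG2, of cytokinin activation, PBP1, which binds the kinase PINOID, and MAKR1. The secreted peptide precursors RGF7, PSK2, CLE2 and CLE10 had 6, 19 and 12 reads together. PSK2, a precursor of the growth peptide phytosulfokine, had 0.052, 0.146 and 0.171 rescaled TPM in asf1a1b from 1, 4 and 4 reads.

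Genes of cutin, suberin and seed coat pigment had 17, 114 and 24 reads over 5 genes. Replicate 2 was highest in all 5, and in 55.7% of all members. LACS2, an acyl-CoA synthetase of cutin formation, had 0.035, 0.365 and 0.058 rescaled TPM in asf1a1b. TT10, the laccase that browns the seed coat, had 0.115, 0.242 and 0.054 (7, 21 and 4 reads). CYP86B1 and KCS2 act in suberin chain synthesis, and MYB107 regulates suberin in the seed coat. They had 26, 34 and 10 summed reads. Of 10 seed coat markers TT10 was the only member, and the list summed to 17.4, 15.5 and 16.1 in asf1a1b against 14.4, 13.5 and 11.0 in Col-0. Of the 4 tested, 1 was higher in asf1a1b and 0 lower, where 16.1% of all genes tested were higher. It was PRX36, with 4.18, 5.08 and 6.79 rescaled TPM in asf1a1b against 1.57, 0.483 and 0.402 in Col-0 (log2 fold change 1.84 ± 0.265 SE, limma adjusted p = 0.00355).

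Genes of meiosis and DNA synthesis were more even, with 25, 47 and 34 reads over 4 genes. SPO11-2, needed for the DNA breaks that start meiotic recombination, had 0.162, 0.228 and 0.300 rescaled TPM in asf1a1b (8, 16 and 18 reads). It overlaps AT1G63980 and AT1G08647, and without a stated strand setting their reads cannot be told apart. RMI1, which resolves recombination intermediates, had 6, 8 and 4 reads, the helicase gene RECQI1 had 5, 2 and 2, and TIL2, for a catalytic subunit of DNA polymerase epsilon, had 6, 21 and 10. The cytidine deaminase genes AT4G29570 and AT4G29640 differed in spread, with 0.268, 0.356 and 0.319 for AT4G29570 and 0.064, 0.565 and 0.716 for AT4G29640.

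Of the genes for chromatin proteins, a group formed after the values were seen, 10 were at 0 in all Col-0 libraries and 4 of these were members, a number too small to set against the 4.64% of all protein-coding genes at 0 in Col-0. HTA11, for the histone variant H2A.Z, had 0.095, 0.381 and 0.105 rescaled TPM in asf1a1b (3, 17 and 4 reads). MEA, the Polycomb histone methyltransferase of the endosperm, had 1, 3 and 4 reads. DMT2, a relative of the DNA methyltransferase MET1, had 2, 2 and 5 reads. It is 96.2% identical over 1269 bases to AT4G08990, which had 0.117, 0 and 0.012 in Col-0, so that the value of DMT2 is uncertain. The SET domain gene SDG35 had 1, 6 and 1 reads. These are counts near the limit of detection.

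Of 38 listed genes of the silencing machinery, MEA alone was a member. Of the list, 25 were tested, and 5 were higher (20%, against 16.1% of all genes tested) and 4 lower in asf1a1b (16%, against 14.5%). The higher ones were EMF1, DRM2, HIRA, MSI1 and ATXR5, and the lower ones were the mutated ASF1A and ASF1B, LHP1 and RDR2. Most genes of the list too low for the fit had the higher mean in asf1a1b, while MET1, CMT3 and NRPD1 had the lower mean. CLF had 0.567, 0.779 and 0.714 in asf1a1b against 0.294, 0.217 and 0.152 in Col-0. KYP had 0.476, 0.652 and 0.633 against 0.243, 0.131 and 0.110. DDM1 had 1.18, 1.06 and 0.795 in asf1a1b against 0.213, 0.220 and 0.265 in Col-0, and MET1 had 0.173, 0.254 and 0.116 against 0.356, 0.421 and 0.490. The median log2 fold change was 0.04 against 0.01 over all genes tested. With the replicate number as a block, RDR2 was no longer among the lower ones (limma adjusted p = 0.0516) and HDA19 joined the higher ones (0.046). None of 19 developmental Polycomb targets was a member. Of the 4 tested, KNAT1 and FLC were lower in asf1a1b. Most untested genes of this list, too low for the fit, had the higher mean in asf1a1b. STM, AGL19, PLT1 and PLT2 had the lower mean. In asf1a1b replicates 1, 2 and 3, WOX5 had 25, 14 and 23 reads, against 1, 0 and 1 in Col-0. WUS had 7, 7 and 10 reads against 1, 1 and 1, while AGL19 had 1, 3 and 1 against 30, 13 and 20. FWA and SDC, genes kept silent by DNA methylation, were not members either, since Col-0 read both. FWA had 10, 30 and 19 reads in asf1a1b against 9, 9 and 12 in Col-0. For SDC the reads were 6, 1 and 2 against 0, 1 and 0.

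The members include 5 miRNA genes. Their values are reads over the precursor, not over the mature miRNA. MIR163 had 2, 10 and 2 reads in asf1a1b replicates 1, 2 and 3, MIR169f had 2, 4 and 2, and MIR870 and MIR5018 had 1 read in each. MIR5642b had 4, 12 and 10 reads, but it overlaps AT2G01008 and is 98.4% identical over 374 bases to MIR5642a, which stood at 850, 1596 and 1252 rescaled TPM in asf1a1b and 505, 818 and 1110 in Col-0, so that its value is uncertain. The mature sequences of the 2 best known are given for identification, 5′ to 3′ from TAIR10.1 with the seed, bases 2 to 8, in capitals. miR163, which targets methyltransferase messengers, lies at chr1:24884359-24884382 on the plus strand, and miR169f-5p, of the family that targets NF-YA messengers, at chr3:4805799-4805819 on the minus strand.

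miR163: uUGAAGAGgacuuggaacuucgau
miR169f-5p: uGAGCCAAggaugacuugccg

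No seed was shared among the 7 annotated mature miRNAs of these genes.

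By kind, 289 of the 323 genes were protein-coding, which is 89.5% of them against 84.3% of all annotated genes of the table. Of the protein-coding genes at 0 in all Col-0 libraries 4.64% were members, whereas 0.960% of such lncRNAs, 2.18% of miRNA genes and no tRNA gene were. In the opposite direction 0.570% of the protein-coding genes at 0 in asf1a1b were in the reverse set. By product, 29 members were transcription factor or zinc finger genes, 6.67% of those at 0 in Col-0, and the reverse set held 0. Cytochromes P450 counted 7 members (8.75%), class III peroxidases 3 (9.68%), lipid-transfer and GDSL lipase genes 9 (6.87%), transporters 8 (6.35%), protein kinases 11 (5.16%), cell wall genes 11 (4.4%) and F-box genes 9 (2.83%). No member was among the 59 transposon-related genes that Col-0 did not read. The part of gene length in these shares was not tested. The members had a median exon length of 1191 bases against 1368 over all genes and 432 in genes at 0 in all 6 libraries.

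The members were spread over the genome. Chromosomes 1 to 5 held 26.3%, 16.1%, 17.0%, 17.3% and 23.2% of them, against 26.6%, 15.9%, 19.8%, 15.1% and 22.6% of the genes of the table. There were 5 runs of adjacent members with 11 genes in all. Besides the 2 already given, they were XTH4 with AT2G06904, the B3-type transcription factor genes AT5G60140 and AT5G60142, and AT3G01845 with AT3G06435, each with 5 to 34 summed reads per gene. An overlap with another annotated gene was found for 61 members (18.9%, against 31.9% of all genes). A near-identical copy, at 95% identity or more over 100 bases, was found for 17 (5.30%, against 6.30% of the genes at 0 in all 6 libraries).

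Promoter windows from 250 bases before to 50 after the start were searched on both strands for short motifs in the 289 protein-coding members and in all 27443 protein-coding genes. The telo-box AAACCCTA was in 8.70% of the member windows and 6.20% of all windows, and TATAAA in 62.3% and 52.1%. The GA repeat GAGAGAGA was in 6.6% and 8.4%, the W-box type TTGACC in 10.4% and 14.2%, the G-box CACGTG in 5.50% and 7.70% and the RY type CATGCATG in 1.40% and 0.900%. Among genes at 0 in all 6 libraries, the telo-box was in 7.70%, TATAAA in 54.7%, the GA repeat in 7.0%, the W-box type in 13.2%, the G-box in 3.6% and the RY type in 1.4%. The members thus lay above these silent genes for the G-box but below all genes. In the 24 protein-coding genes of the reverse set, the shares in the same order were 16.7%, 45.8%, 8.3%, 20.8%, 4.2% and 0%. The shares are descriptions of these windows.

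Genes beside the members were compared with all genes, since the choice had not used them. The nearest other gene on each side gave 632 genes, of which 258 were tested. Of these 38 were higher in asf1a1b, 14.7% against 16.1% over all genes tested, and 41 were lower, 15.9% against 14.5%. The median log2 fold change was -0.05 against 0.01 over all genes tested. Without asf1a1b replicate 3, 20 were higher and 21 lower, 7.84% and 8.24% against 6.79% and 5.32% of all genes. Without asf1a1b replicate 2 they were 26 and 25, 10.2% and 9.8% against 8.98% and 7.16%. Without Col-0 replicate 2 they were 27 and 25, 10.4% and 9.62% against 8.44% and 5.98%. The background moved with them, to 991 and 776 genes, 1305 and 1041 genes, and 1242 and 880 genes, from 2362 and 2132. The genes on the same strand that ended less than 500 bases upstream of a member numbered 48, and of the 27 tested 7 were higher (25.9%) and 4 lower in asf1a1b. Beside the reverse set, 21 genes were tested, of which 0 were higher and 8 lower (38.1%, against 14.5% over all genes tested). Their median log2 fold change was -0.316.

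Neighbours with the largest changes are named by rule. ELI3-2, a cinnamyl alcohol dehydrogenase gene that ends 472 bases before DOF4.7, had 1.87, 13.2 and 7.42 rescaled TPM in replicates 1, 2 and 3 of asf1a1b against 0.234, 0.513 and 0.074 in Col-0. The groups did not overlap (log2 fold change 2.47 ± 0.52 SE, limma adjusted p = 0.012), and without asf1a1b replicate 3 it no longer passed (adjusted p = 0.0578). AT4G08867, next to the lncRNA member AT4G05625, had 1.61, 7.13 and 9.84 in asf1a1b against 0.106, 0.164 and 0.330 in Col-0 (2.36 ± 0.47 SE, limma adjusted p = 0.0105). PATL1, a patellin gene next to AT1G72141, had 10.2, 21.2 and 19.7 in asf1a1b against 4.50, 1.75 and 2.45 in Col-0 (2.21 ± 0.33 SE, limma adjusted p = 0.00398). AT4G26400, a RING finger gene that overlaps AT4G26390 by its end, had 6.36, 10.2 and 9.23 in asf1a1b against 1.16, 1.12 and 1.32 in Col-0 (2.1 ± 0.18 SE, limma adjusted p = 0.000827). AT1G04360, a RING finger gene 5998 bases from ERF14, was lower in every mutant library, with 1.64, 1.08 and 0.814 in asf1a1b against 11.4, 10.2 and 7.18 in Col-0 (-2.28 ± 0.21 SE, limma adjusted p = 0.00114). Of these 5 neighbours, 4 were higher and 1 was lower in the mutant.

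**Figure D5:**
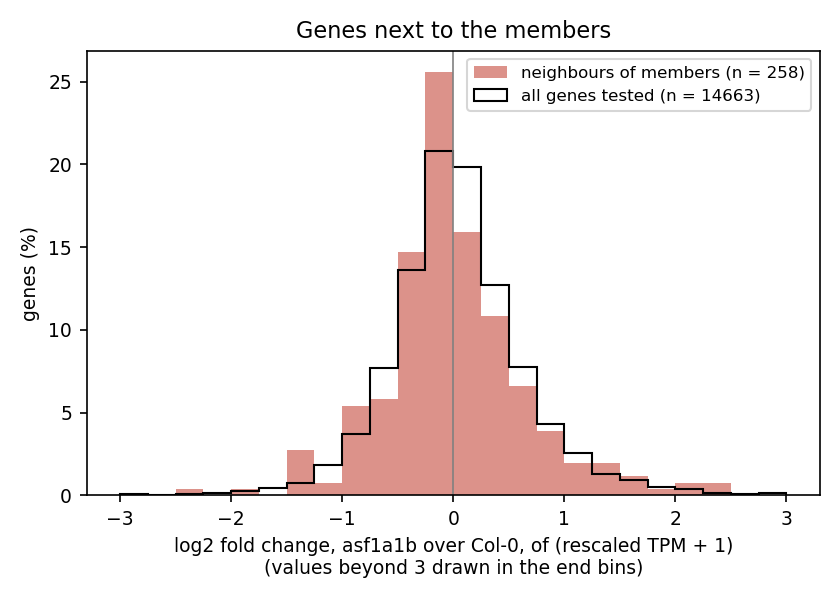
Share of genes (vertical, %) by log2 fold change of rescaled TPM + 1, asf1a1b over Col-0 (horizontal), for the 258 tested neighbours of the members (filled) and for all 14663 genes tested (outline). The medians are -0.05 and 0.01, and the 2 shapes largely coincide.

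Genes just outside the rule were also thinly read. With 1 read over the Col-0 libraries and every asf1a1b library above 0 there were 321 genes, with a median of 11 and a maximum of 1156 reads in asf1a1b, against 50 genes with the genotypes exchanged. At 0 in Col-0 and above 0 in 2 of the asf1a1b libraries there were 886 genes, with a median of 4 reads, against 86 genes with the genotypes exchanged. The missing library of the 886 was asf1a1b replicate 1 for 609, replicate 3 for 206 and replicate 2 for 71. Among the asf1a1b libraries, replicate 1 also had the fewest recovered reads and replicate 2 the most.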

How the data were processed

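Total RNA of fresh seeds was sequenced in 3 asf1a1b and 3 Col-0 libraries, grouped by their titles. Reads had been processed with HISAT2 2.2.1 and fastp 0.23.4 on the build TAIR10, per the submitters' processing notes. Read counter and strand setting: not given in the sources used here. From these reads the authors deposited a TPM table of 32833 genes whose library totals run from 915126 to 1049698, so that this signal is TPM rescaled between libraries. The authors' deposited table of 15257 genes gives a log2 fold change, a p-value and an adjusted p-value.

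A value multiplied by the gene's merged exon length (RefSeq, TAIR10.1) came out as an integer times a step fixed for each library. In each library, 99.3% to 99.4% of the checkable values below 200 reads came within 0.1 of an integer. Reads were recovered for 32548 genes, and 285 had no matched length, organelle loci among them. Floors are 3 reads over the group and cover counting error only.

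Genes with a mean of at least 1 (14663) were tested by limma 3.58.1 (R 4.3.3) on log2(value + 1) (trend, two-sided, Benjamini-Hochberg, threshold 0.05). The scale understates the change of low genes. No test of a member's own difference is used. Copies were found with BLAST 2.17.0, and Python 3.11.15 was used for the rest. The scripts were tested on simulated data.

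Across these genes, the deviations from the group mean of libraries with the same number correlated at 0.427, 0.144 and 0.327 for replicates 1, 2 and 3, over 0.1 in each. A fit with the replicate number as a block was therefore added. The main fit held genotype alone and ignored any pairing, and it gave every adjusted p-value for which no block is named. The pairing by number comes from the data, since the labels speak of no common batch, and it is uncertain. The mutant library 2 had a higher value, 0.381, with Col-0 library 3. The members, lists and motifs were chosen with earlier results of these data known, and the groups by role, the chromatin and the MADS-box groups after the values were seen. Named are ASF1A and ASF1B, the 20 members of highest mean with at least 5 reads in each asf1a1b library, every member on a gene list, runs of adjacent members, and the 5 neighbours past the threshold with the largest change. The same rule for the reverse set named 0 genes. Other members are named as examples.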

Additional observations from a re-analysis of the deposited data

How the results depend on the processing

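The set of 323 genes counted 64 at a minimum of 3 reads in each asf1a1b library, 5 at a minimum of 10, and 644 when 1 read over Col-0 was allowed, against 4, 0 and 83 for the reverse set of 33. Without 1 library the set ranged from 394 to 932 and the reverse set from 54 to 87. Protein-coding genes alone gave 289 and 24. A minimum mean of 5 gave 1222 higher and 1322 lower genes in all, 12.4% and 13.4% of those tested. Of 172 neighbours tested there, 17 were higher and 26 lower (9.88% and 15.1%). With no filter, 59 of 500 tested neighbours were higher, 11.8% against 12.0% of all genes tested. Without 1 library, higher genes ranged from 991 to 2738, lower genes from 776 to 2476, higher neighbours from 20 to 46 and lower neighbours from 21 to 51. Median-of-ratios scaling moved the median of all genes to -0.06 and gave 2035 higher and 2632 lower genes, and voom on recovered reads 1987 and 2481. With the replicate block, 3067 genes were higher and 2758 lower, 20.9% and 18.8% of those tested. Of the tested neighbours, 50 were higher and 52 lower (19.4% and 20.2%). The block kept the calls of the 5 named neighbours, ASF1A and ASF1B. Among the listed genes the block ended the call of RDR2 (adjusted p = 0.0516) and added HDA19 (0.046), FLY1 (0.0259), GAPB (0.0332) and SAG13 (0.0428), and it changed no other call of a listed gene or of AT1G59910. The cause of these shifts was not tested. Depth limits most members, since 196 of 323 had a single read in some mutant library.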
